A study of Xenopus tropicalis with 2 samples.

Results

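The peaks described here lay on large unplaced scaffolds, which are assembled stretches of the Xenopus tropicalis genome that had not been joined to a chromosome. A peak was a member when its sequence name was not that of a chromosome, when that scaffold held 20 or more peaks of the table, and when its reads in both libraries summed to under 400. This gave 18274 of the 124349 peaks (14.7%), on 341 of the 3706 scaffolds. The members held 555212 unsorted and 534712 sorted reads, 17.5% and 17.2% of the reads in peaks of each library. The same 341 scaffolds held 311 further peaks with 400 reads or more, on 101 of them, which were left out by the rule.

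The study profiled genome occupancy in wild-type tadpoles. Tails were amputated at NF stage 41, and both libraries came from tail tissue labelled 0 hours post amputation and dissociated with Liberase. The cells of 1 library were left unsorted and those of the other went through a fluorescence-activated cell sorter, so the question is how far sorting changes the profile. With 1 library per condition there is no spread between replicates to judge a difference by, and no test between conditions was run. The labels did not name the assay or the sorted cells. All values are counts of reads. The intervals are exact 95% intervals of counting error only, and reads are not independent molecules.

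An unplaced scaffold is a part of the genome that an assembly could build but not order, often because repeated or recently duplicated sequence surrounds it. Such scaffolds carry genes and regulatory sequence as chromosomes do. A peak is a place where reads pile up above their surroundings, and in occupancy profiles many peaks mark promoters and enhancers. Reads from near-identical copies of a sequence can be placed on either copy or stacked on 1 of them. The labels do not say how reads that map to several places were handled, so the number of copies of a sequence and the occupancy of each copy cannot be told apart.

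Peaks stood closer together on the scaffolds than on chromosomes. The 341 scaffolds held between 4 and 287 members each, with a median of 36, and 3 of them kept under 20 members because many of their peaks were over the limit of 400 reads. Density was taken as members per kb from the first to the last base of a scaffold's members, since scaffold lengths were not used here. Its median over scaffolds was 0.207 per kb, with quartiles of 0.166 and 0.247 and a range of 0.0518 to 0.552. Over all 10 chromosomes, density to the last peak was 0.0736 per kb, from 0.0685 on chromosome 7 to 0.104 on chromosome 10. On 317 of the 341 scaffolds density was above that of every chromosome. For a comparison at the median number of members per scaffold, each chromosome was divided into runs of 36 consecutive peaks under 400 reads. Single scaffolds held fewer or more peaks than a run, so peak number was matched only at the median. The 2585 runs had a median density of 0.0743 per kb, and 3.06% of them were above the scaffold median.

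The scaffolds were chosen for their number of peaks, which favours dense ones among the short. That choice has little room among long scaffolds. Of the 161 scaffolds whose last peak ended at 200 kb or further from the first base, 2 held under 20 peaks, and the median density of all 161 was 0.171 per kb. The 54 that reached 500 kb all held 20 peaks or more and had a median of 0.135 per kb, and the 19 that reached 1000 kb had 0.120 per kb, with a range of 0.0515 to 0.187. Density was therefore lower on longer scaffolds, and its median stayed above that of each chromosome at every length examined.

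The spacing of single peaks showed the same. From 1 peak start to the next the median distance was 3767 bases before a member and 8650 bases before a chromosome peak under 400 reads. Distances under 1000 bases made up 20.2% on scaffolds and 12.3% on chromosomes, and distances of 10000 bases or more made up 17.7% and 45.1%. All members were 400 bases wide. A share of 3.23% of the members overlapped a neighbour, against 2.81% of the chromosome peaks. Whether reads in such overlaps counted for 1 peak, for both or for neither is not known here.

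Reads per peak were also higher on the scaffolds. The median member had 21 unsorted and 21 sorted reads, against 14 and 15 for chromosome peaks under the same limit. Summed over both libraries the median was 41 against 28, and the quartiles ran from 28 to 67 reads on scaffolds and from 21 to 40 on chromosomes. The lowest member had 7 reads and none lacked reads in either library. Peaks with at least 100 reads made up 13.2% of the members and 4.05% of the chromosome peaks. The excess grew with coverage. Peaks with 50 to 99 reads were 2.13 times as frequent among members, those with 100 to under 200 reads 3.03 times and those with 200 to under 400 reads 4.06 times, while those under 20 reads were 0.427 times as frequent. On 314 of the 341 scaffolds the median member was above the chromosome median of 28 reads. High coverage was not particular to the large scaffolds. The 11146 peaks on smaller scaffolds under the same limit had a median of 38 summed reads, and 16.8% had at least 100.

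**Figure D1:**
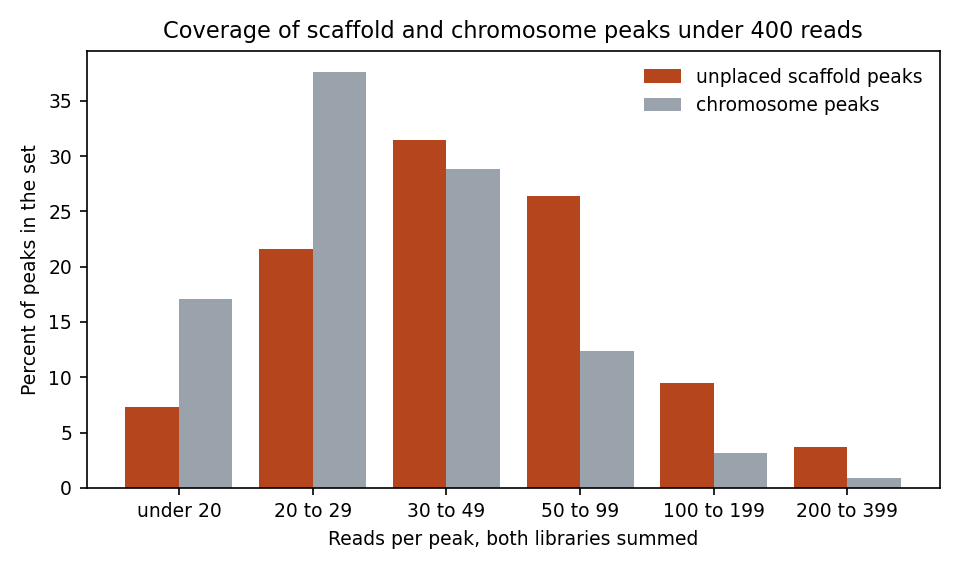
Percent of the peaks in each class of reads summed over both libraries (x axis), for the 18274 unplaced scaffold peaks and 93285 chromosome peaks under 400 reads. Scaffold peaks are rarer than chromosome peaks below 30 reads and more frequent from 30 reads upwards.

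Density and coverage went together, on scaffolds as on chromosomes. Across the 341 scaffolds, density and the median reads per member had a rank correlation (Spearman) of 0.585, which was 0.698 among the 2585 chromosome runs. These are descriptions across stretches of genome that share the same libraries. At like density most of the gap in coverage was gone. Scaffolds with 0.15 to 0.2 peaks per kb had a typical median of 41.75 reads per peak (90 scaffolds), and chromosome runs of that density had 39.5 (195 runs). With 0.2 to 0.25 peaks per kb the values were 45.5 on 104 scaffolds and 43.5 in 68 runs, and with 0.25 to 0.35 they were 46 on 55 scaffolds and 47.75 in 28 runs. Most chromosome stretches of such density lay near chromosome ends. Of the runs with 0.15 to 0.2 peaks per kb, 68.2% came within 5 Mb of the outermost peak of their chromosome, against 2.09% of the runs with under 0.1.

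**Figure D2:**
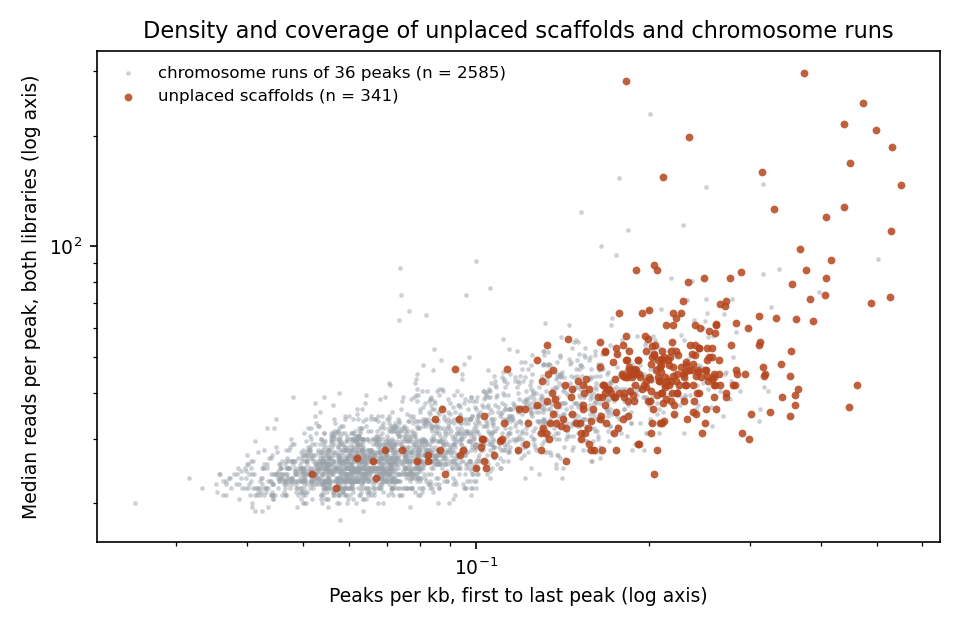
Peaks per kb (x axis, log) and median reads per peak summed over both libraries (y axis, log) of the 341 scaffolds and of 2585 runs of 36 consecutive chromosome peaks. Most scaffolds lie in the upper right, where they overlap the densest chromosome runs.

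At the ends of the range stood a few scaffolds. Densities here count members only, so scaffolds with many peaks over the limit rank lower than they would over all their peaks. By members the densest was scaffold_410, with 64 members over 116 kb (0.552 per kb) and a median of 146.5 reads. It was followed by scaffold_855, with 23 members over 43.3 kb (0.531 per kb) and a median of 186 reads, and by scaffold_477, with 40 members over 75.6 kb (0.529 per kb) and a median of 110 reads. All of these had several times the reads per peak of a typical member. The sparsest was scaffold_21, where 140 members spread over 2703 kb (0.0518 per kb) with a median of 24 reads. On scaffold_116 there were 23 members over 403 kb (0.0570 per kb) with a median of 22 reads, and on scaffold_73 there were 102 over 1642 kb (0.0621 per kb) with 26.5 reads. These sparse scaffolds lay below the typical chromosome in density and in coverage, as did scaffold_51 with 0.0670 per kb and a median of 23.5 reads. Among the lowest medians of reads were those of scaffold_116, scaffold_51 and scaffold_21.

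By far the most reads lay on scaffold_499. Its 183 members spanned 491 kb (0.372 per kb) and held 27375 unsorted and 23250 sorted reads, with a median of 296 reads and quartiles of 224.5 and 335. A further 87 of its 270 peaks were over the limit and are not in that density. Over all 270 peaks the median was 334 reads. High coverage was thus a feature of most of its peaks and did not come from a few. The limit hides part of such scaffolds: scaffold_1360 kept 4 of its 23 peaks, with a median of 281.5 reads among the members and 1016 over all its peaks. On scaffold_490, 45 members had a median of 245 reads. In all, 15 scaffolds had a median of at least 100 reads per member. They held 3.50% of the members but 12.1% of the members' unsorted and 11.5% of their sorted reads, between 35.7 and 116 reads per kb, where the median scaffold had 11.8 and the median chromosome run 2.41.

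Scaffolds differed from each other in coverage more than chromosome stretches did. Of the variance of log2 reads per peak, 26.0% lay between scaffolds and 20.2% between chromosome runs. Within a scaffold the standard deviation of log2 reads was 0.85, against 0.70 within a run. Members in the first 10 kb of a scaffold had a median of 44 reads (981 peaks), those at 10 to 49 kb had 48 and those at 50 kb or further had 40, so coverage did not fall off towards that end.

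The share of reads that the members took was nearly the same in both libraries. Their log2 share ratio, which is the log2 of the share of all reads in peaks in the sorted over that in the unsorted library, was -0.024 (-0.029 to -0.019). For chromosome peaks under 400 reads it was 0.084 (0.080 to 0.087). The value of the members was -0.0020 (-0.0079 to 0.0040) with a limit of 200 reads per peak and -0.015 without scaffold_499. The median member had a log2 ratio of 0.028, and 50.5% of the members were above 0. The pooled value also depended on the scaling. It was -0.091 with TMM factors and 0.13 when scaled by the 5000 peaks with the most reads, which moves all log2 ratios by 0.16. The difference between members and chromosome peaks does not depend on such a scaling, since each moves both alike. A change in the mix of cells and a change within the cells cannot be told apart in such data.

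Since the ratio varies with coverage in this series, members were compared with chromosome peaks within classes of summed reads. In each class the members lay lower. With under 20 reads the log2 share ratio was 0.026 on scaffolds and 0.095 on chromosomes, a difference of -0.069 (-0.11 to -0.030). With 20 to 29 reads it was 0.033 against 0.11, and with 30 to 49 reads 0.016 (0.0040 to 0.028) against 0.14 (0.13 to 0.14). The gap was widest in that class, at -0.12 (-0.13 to -0.11). From there it narrowed, to -0.067 with 50 to 99 reads, -0.058 with 100 to under 200 reads and -0.034 (-0.051 to -0.016) with 200 to under 400 reads. Members of that last class had a log2 share ratio of -0.13 and chromosome peaks of that coverage -0.096. Most members of scaffold_499, whose own log2 share ratio was -0.21, were among the 682 members of that class. How far the gap in that class rests on this scaffold was not tested. Weighted to the reads of the members in each class, the difference was -0.071 (-0.077 to -0.064).

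**Figure D3:**
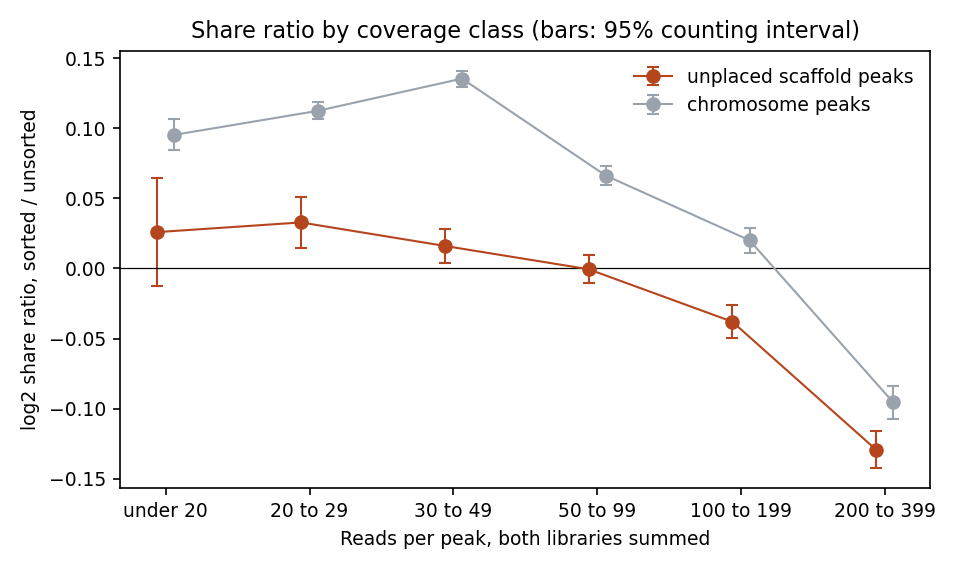
The log2 share ratio, sorted over unsorted (y axis), of reads pooled within classes of summed reads per peak (x axis), for unplaced scaffold and chromosome peaks. Bars are exact 95% counting intervals. Scaffold peaks lie lower in all 6 classes, by 0.12 at 30 to 49 reads and by 0.034 at 200 reads and above. Most members of scaffold_499 are in that last class.

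That difference depended on which chromosome peaks were taken. Against single chromosomes it ran from -0.16 for chromosome 3 to -0.0063 (-0.019 to 0.0061) for chromosome 8, whose interval held 0. Against the 13941 chromosome peaks within 5 Mb of the outermost peaks it was 0.00097 (-0.0079 to 0.0098). Against the remaining chromosome peaks it was -0.097 (-0.10 to -0.090). Scaffold peaks thus lay below the chromosome interior, and no difference from chromosome ends was detectable at this depth. Against all chromosome peaks of like reads and like distance to the nearest peak it was -0.062. On chromosomes too, the log2 share ratio was lower where peaks crowded. Pooled without matching on reads, it was 0.044 for chromosome peaks whose nearest neighbour started under 1000 bases away. For those at 10000 bases or more it was 0.14. On scaffolds the same classes had -0.050 and 0.017. Median summed reads also differed between these classes, with 29 and 25 on chromosomes and 39 and 32 on scaffolds. Distance from the first base of the scaffold made no such difference, with -0.067 in the first 10 kb and -0.071 at 50 kb or further, both against chromosome peaks of like coverage.

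The ratio varied between scaffolds. The log2 share ratio of each scaffold had a mean of -0.011 and a standard deviation of 0.15 over 341 scaffolds, where counting error alone corresponds to 0.064. The 2585 chromosome runs had a mean of 0.10 and a standard deviation of 0.14, where counting error alone corresponds to 0.083. The part beyond counting error was 0.13 for scaffolds and 0.12 for runs. Set against chromosome peaks of like coverage, 246 scaffolds lay below 0 and 95 above. For 115 scaffolds (33.7%) the interval was below 0 and for 28 (8.21%) it was above. Against chromosome peaks within 5 Mb of the outermost peaks, 62 were below and 59 above. Among chromosome runs 11.1% were below and 12.7% above. Scaffolds hold more reads, which narrows their intervals. Among units with 1000 to 3000 reads, 30.2% of 205 scaffolds were below and 6.83% above, against 12.8% and 12.0% of 1839 runs.

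At 0.1 to 0.2 and at 0.25 to 0.35 peaks per kb the medians of scaffolds and runs were near each other. They lay further apart at 0.2 to 0.25, and furthest apart under 0.1. With 0.1 to 0.15 peaks per kb the median difference from chromosome peaks of like coverage was -0.044 for 45 scaffolds and -0.031 for 422 runs. With 0.15 to 0.2 peaks per kb the median difference from chromosome peaks of like coverage was -0.065 for scaffolds and -0.060 for runs. With 0.2 to 0.25 it was -0.085 and -0.050, and with 0.25 to 0.35 it was -0.10 and -0.11. In each of these classes the quartile ranges of scaffolds and runs overlapped, as they also did under 0.1. The 18 scaffolds with under 0.1 peaks per kb had a median of -0.034, and the 1870 such runs had 0.023. An interval below 0 was found for 27.8% of those scaffolds and 6.42% of those runs. That share was also higher on scaffolds with 0.1 to 0.15 (35.6% and 17.1%) and 0.2 to 0.25 (36.5% and 27.9%). It was lower on scaffolds with 0.15 to 0.2 (25.6% and 32.3%) and 0.25 to 0.35 (41.8% and 50%). These shares were not matched on reads, and more reads narrow an interval. Across all densities the median scaffold held 2204 reads and the median run 1195. The 29 scaffolds with 0.35 peaks per kb or more had a median difference of -0.0070. Of these, 34.5% had an interval below 0 and 17.2% above. Only 2 runs were that dense, with a median of 0.015, too few to compare.

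**Figure D4:**
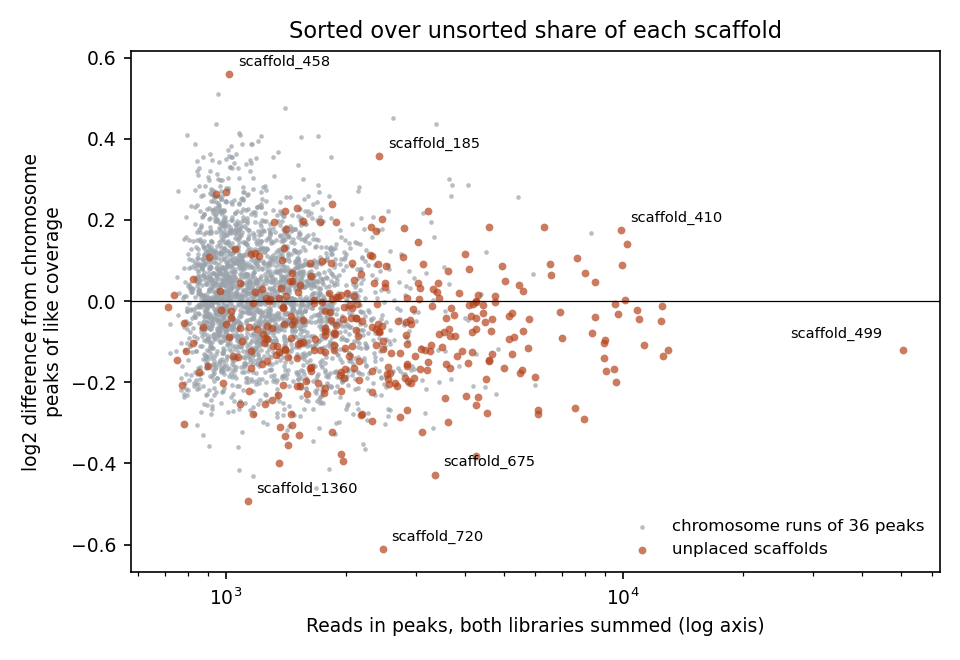
Difference of the log2 share ratio from chromosome peaks of like coverage (y axis) by reads in peaks summed over both libraries (x axis, log), for 341 scaffolds and 2585 chromosome runs of 36 peaks. More scaffolds lie below 0 than above, and scaffold_720 and scaffold_458 mark the lower and the upper end.

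The lowest scaffold was scaffold_720. Its 27 members over 66.3 kb held 1502 unsorted and 987 sorted reads, a log2 share ratio of -0.58 and a difference of -0.61 (-0.73 to -0.49) from chromosome peaks of like coverage. All 27 peaks were below 0, from -1.48 to -0.022. On scaffold_675, 1940 unsorted and 1418 sorted reads gave a difference of -0.43 (-0.53 to -0.33), with 24 of 25 peaks below 0. The 4 members of scaffold_1360, with 689 unsorted and 449 sorted reads, gave -0.49 (-0.67 to -0.32), and all 4 were below 0. Nearly all members of these scaffolds were thus below 0, while the 19 other peaks of scaffold_1360 were over the limit of 400 reads. On scaffold_374, 34 of 39 peaks were below 0, with 2440 unsorted and 1814 sorted reads (-0.38, -0.47 to -0.29). On scaffold_70, 18 of 25 were below 0, with 1117 unsorted and 850 sorted reads (-0.39, -0.52 to -0.26). These 5 were picked for their low values. Apart from scaffold_1360, all of them were denser in members than the typical scaffold, with 0.273 to 0.439 per kb. On scaffold_1360 the members alone gave 0.183, a value that leaves out 19 of its 23 peaks. The median distance from the previous peak start to its members was 1258 bases, against 3767 bases for all members.

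The highest scaffold was scaffold_458, with 403 unsorted and 617 sorted reads in 20 members (0.157 per kb). Its difference was 0.56 (0.37 to 0.74), and 19 of 20 peaks were above 0. On scaffold_185, 1040 unsorted and 1394 sorted reads in 56 members gave 0.36 (0.24 to 0.47), with 45 peaks above 0. Next came scaffold_385 with 1510 and 1716 reads (0.22, 0.12 to 0.32) and 25 of 32 peaks above 0. On scaffold_53, 2913 unsorted and 3413 sorted reads gave 0.18 (0.11 to 0.25), with 92 of 131 peaks above 0. The densest scaffold by members, scaffold_410, was also among them, with 4738 unsorted and 5156 sorted reads (0.17, 0.12 to 0.23). On it, 24 of 64 peaks were below 0. A high share in the sorted library therefore occurred on scaffolds of ordinary density and on the one densest in members.

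**Figure D5:**
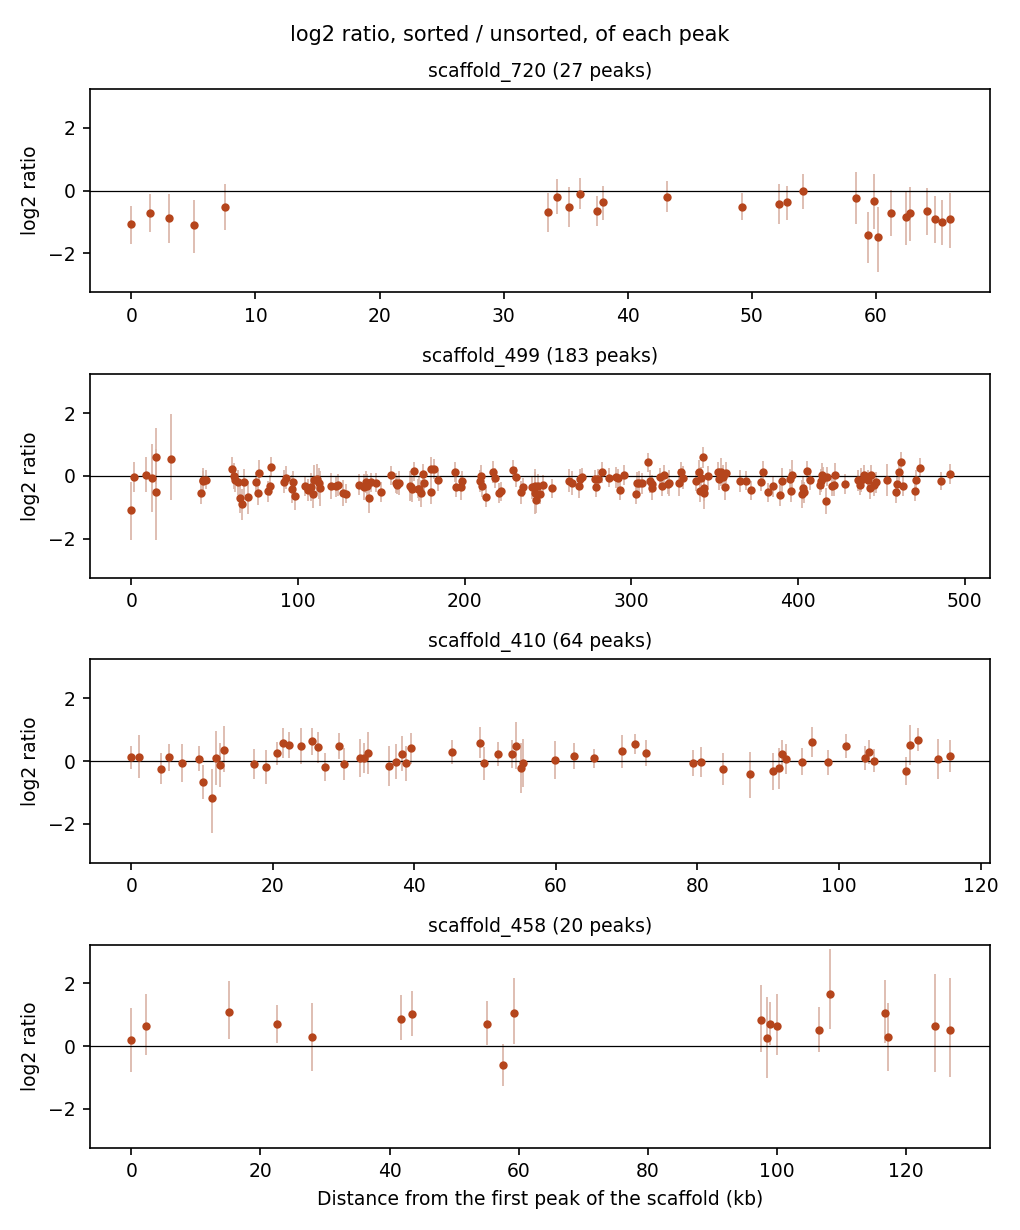
The log2 ratio, sorted over unsorted, of each member (y axis) by distance from the first member of its scaffold in kb (x axis), on 4 scaffolds. Bars are 95% counting intervals. All 27 peaks of scaffold_720 lie below 0, 147 of 183 on scaffold_499 do, and 19 of 20 on scaffold_458 lie above.

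To compare a scaffold's peaks among themselves, members were taken alternately along each scaffold into an odd and an even set. Across the 341 scaffolds the differences in the odd and in the even set correlated with r = 0.461 (Pearson) and rho = 0.409 (Spearman). For the 2585 chromosome runs r was 0.325 and rho 0.307. These are descriptions, since all stretches share the same pair of libraries, and scaffolds hold more reads than runs. Adjacent peaks that overlap fall in opposite sets and may share reads, depending on how reads in overlaps were counted. How far this adds to the correlations was not tested.

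Scaffolds of high coverage lay on both sides of chromosome peaks of like coverage. Of the 15 scaffolds with a median of at least 100 reads, 7 had an interval below and 3 above that level, with differences from -0.49 to 0.17. On scaffold_499 the log2 share ratio was -0.21 and the difference -0.12 (-0.15 to -0.095). On scaffold_490, with 5027 unsorted and 5175 sorted reads, the difference was 0.14 (0.084 to 0.20). On scaffold_855 it was 0.049 (-0.032 to 0.13), with 2542 and 2493 reads, and the interval held 0. On scaffold_477 it was -0.15 (-0.23 to -0.063), with 2410 and 2179 reads. Of the 79 scaffolds with a median of 50 to 99 reads, 37 were below and 7 above, and of the 88 with a median of at least 30 and under 40 reads, 29 were below and 3 above. Below and above were 34 and 13 of the 126 scaffolds with a median of at least 40 and under 50 reads, and 8 and 2 of the 33 with under 30. The sparse scaffolds scaffold_116 (-0.14), scaffold_21 (-0.085) and scaffold_73 (0.033) had intervals that held 0, and scaffold_51 had -0.12 (-0.22 to -0.015).

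The 10 scaffolds with the most members held 2373 of them, and on none of these was the interval above chromosome peaks of like coverage. On 5 it was below. The lowest was scaffold_16, with 209 members, 4707 unsorted and 4333 sorted reads (-0.17, -0.23 to -0.11). Next were scaffold_13 with 267 members, 6486 and 6095 reads (-0.13, -0.18 to -0.084), and scaffold_33 with 258 members, 6658 and 6328 reads (-0.12, -0.17 to -0.071). The others below were scaffold_499 and scaffold_15, the latter with 278 members, 5768 and 5516 reads (-0.11, -0.16 to -0.054). The scaffold with the most members, scaffold_14 with 287, had 6186 unsorted and 6364 sorted reads and a difference of -0.011 (-0.062 to 0.039). Intervals also held 0 on scaffold_18 (-0.044), scaffold_19 (-0.049), scaffold_24 (-0.033) and scaffold_124 (0.0031). Apart from scaffold_499, these long scaffolds had 0.111 to 0.182 peaks per kb.

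Single members rarely differed. Differing peaks were those with 20 or more summed reads, a 2-fold or larger difference after scaling by library totals, and an interval clear of an equal level. Of the 16938 members that reached 20 reads, 363 (2.14%) were higher and 318 (1.88%) lower in the sorted library. Over all 105380 peaks of the table with 20 or more reads, with no upper limit, the shares were 3.53% and 1.65%. Chromosome peaks weighted to the coverage of the members gave 3.54% higher and 1.31% lower. These shares are set side by side without a test. The split depended on scaling and on the call thresholds. Higher peaks made up 53.3% of the differing members with library totals, 38.9% with TMM factors, 37.1% when scaled by chromosome peaks and 80.6% when scaled by the 5000 peaks with the most reads. With library totals they made up 48.3% at 1.5-fold and 47.6% with a minimum of 50 reads. The share was 54.1% with no minimum of reads and 57.4% with a prior count of 5. The higher members lay on 161 scaffolds and the lower on 169, and 95 of the 341 scaffolds had neither.

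Of the 2417 members that reached 100 reads, the interval lay above 0 for 155 (6.41%) and below 0 for 338 (13.98%) with library totals. Over all 9167 such peaks of the table the shares were 7.71% and 17.2%, and over the 3780 chromosome peaks under 400 reads 9.68% and 11.7%. The level of 0 moves with the scaling, and the named peaks were ranked by the bound of the interval nearest to 0, not by the ratio itself. First by that bound among the higher members was a peak on scaffold_203 at 301475 to 301874, with 76 unsorted and 163 sorted reads (log2 ratio 1.13, 0.73 to 1.54). A second peak of that scaffold, at 319328 to 319727, had 53 and 110 reads (1.08, 0.60 to 1.58). Of the 19 other members within 50 kb of the first, 13 were above 0, with a median of 0.20. On scaffold_264 the 326 to 725 peak held 120 unsorted and 231 sorted reads (0.97, 0.65 to 1.31). On scaffold_15 the 1036995 to 1037394 peak held 68 unsorted and 140 sorted reads (1.07, 0.64 to 1.51), with 8 of its 16 neighbours above 0. On scaffold_66 the 628269 to 628668 peak held 34 unsorted and 77 sorted reads (1.20, 0.61 to 1.84). Around the 5 highest peaks the neighbours had medians from -0.037 to 0.27. The peaks were picked for their height, so this is a description.

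First by that bound among the lower members was a peak on scaffold_39 at 371464 to 371863, with 253 unsorted and 115 sorted reads (-1.10, -1.44 to -0.78). Its 8 neighbours within 50 kb had a median of 0.19, in the other direction. On scaffold_383 the 166601 to 167000 peak held 85 unsorted and 35 sorted reads (-1.24, -1.86 to -0.67). On scaffold_587 the 66681 to 67080 peak held 80 unsorted and 33 sorted reads (-1.23, -1.88 to -0.65), and on scaffold_94 the 412204 to 412603 peak held 99 unsorted and 43 sorted reads (-1.16, -1.72 to -0.64). Their neighbours had medians from -0.068 to 0.13. The peak on scaffold_374 at 157136 to 157535 had 260 and 136 reads (-0.90, -1.21 to -0.60), and its 14 neighbours had a median of -0.47. Positions are given as the deposited table has them, in a genome build that the labels do not name. No gene, promoter or other feature was therefore assigned.

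The values near the limits of the rule were as follows. The members with the most reads, on scaffold_499 (490361 to 490760), scaffold_405 (87579 to 87978), scaffold_162 (69326 to 69725), scaffold_497 (42984 to 43383) and scaffold_345 (11949 to 12348), had reads just under the limit and log2 ratios from -0.56 to 0.088. The 82 members with 360 reads or more had a log2 share ratio of -0.21 (-0.24 to -0.18), and the 57 peaks of the same scaffolds with 400 to 440 reads had -0.083 (-0.12 to -0.046). Many of those 82 members lay on scaffold_499, whose own log2 share ratio was -0.21. How far the step at the limit rests on that scaffold was not tested. On the 23 scaffolds with 20 or 21 peaks it was 0.0076 (-0.025 to 0.040), with a median of 48 reads, and on the 23 with 18 or 19 peaks it was -0.069 (-0.10 to -0.036), with a median of 46 reads.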

How the data were processed

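Genome occupancy was measured in 1 library from unsorted and 1 from sorted cells of tadpole tail. The deposited table holds raw counts per peak, which the authors had not normalized. The submitters' processing notes name MACS2, featureCounts, Bowtie, Bowtie2, SAMtools and Trim Galore, without versions or order. The peak names describe 1 merged set counted in both libraries. Duplicate removal, the treatment of multi-mapped reads and the genome build are not stated there. Reads in peaks numbered 3176954 unsorted and 3111092 sorted. A count of 0 would allow up to 3 reads, 0.944 and 0.964 CPM, respectively. The 548 peaks without a position stayed in the totals.

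The members were found by name, number of peaks per scaffold and summed reads. Members, lists and rules were chosen with earlier results of these data known. Ratios were scaled by library totals, with a prior count of 0.5 for single peaks. Intervals were Clopper-Pearson intervals of the sorted share. For the difference from chromosome peaks of like coverage, reads of chromosome peaks under 400 reads were pooled in classes with lower limits of 0, 20, 30, 50, 100 and 200 summed reads and weighted to the reads of the members in question. For single scaffolds that reference was taken as fixed. With 1 library per group no test was possible, and the functions were tested on simulated data. Named scaffolds were the 10 with the most members, the 5 highest and 5 lowest differences (ranked by the bound closest to 0), plus the 3 highest and 3 lowest in density and in median reads. Named peaks were the 5 highest and 5 lowest among members with at least 100 reads, and the 5 with the most reads. The scaffolds holding such peaks are named with them. Classes of density, of spacing and of distance from a scaffold's start, the odd and even sets and the groups of scaffolds by median reads were chosen after the data were seen. Alternatives were other scalings (edgeR 4.0.16 TMM factors, DESeq2 1.42.0 size factors, chromosome peaks, the 5000 most covered peaks), other limits of the rule, other references, and other call thresholds. Python 3.11.15, NumPy 2.4.6, pandas 2.3.3, SciPy 1.17.1, matplotlib 3.10.9 and R 4.3.3 were used.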

Additional observations from a re-analysis of the deposited data

How the results depend on the processing

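The log2 share ratio of all members was -0.024 with library totals. TMM factors gave -0.091, DESeq2 size factors -0.054, the total of chromosome peaks -0.11, and the 5000 peaks with the most reads turned it to 0.13. Each of these adds 1 constant to all log2 ratios. It was -0.0020 with a limit of 200 reads, where the interval held 0, -0.043 with no limit, -0.032 with at least 10 peaks per scaffold and -0.015 without scaffold_499, an alternative chosen after seeing the data. The difference from chromosome peaks of like coverage was -0.085 as a mean over peaks and -0.079 with a limit of 200 reads. It ran from -0.16 against chromosome 3 to -0.0063 against chromosome 8. References chosen after seeing the data gave -0.062 for peaks of like spacing and 0.00097 for peaks within 5 Mb of chromosome ends and -0.097 for those further away. It was -0.069 without scaffold_499, and exact matching on reads, 10 or 40 peaks per scaffold, no overlapping peaks and a minimum of 20 reads moved it by less than its interval. Against chromosome ends, 59 scaffolds were above and 62 below, in place of 28 and 115. Higher members numbered 679 and lower ones 163 when scaled by the 5000 peaks with the most reads, 78 and 86 with a minimum of 50 reads, 625 and 669 at 1.5-fold, and 187 and 139 with a prior count of 5. The last 3 use a stricter or laxer criterion, which changes the totals. In them higher peaks made up 47.6%, 48.3% and 57.4% of the differing members, against 53.3% in the main setting. Why this split moved was not tested. The log2 share ratio of single scaffolds also moved with the scaling, while their difference from chromosome peaks of like coverage does not. Sign changes are listed for named scaffolds whose ratio had an interval clear of 0 with library totals. Scaling by chromosome peaks took that ratio from 0.071 to -0.013 on scaffold_124 and from 0.071 to -0.012 on scaffold_14. On scaffold_490 it went from 0.072 to -0.011. The 5000 peaks with the most reads took it from -0.059 to 0.098 on scaffold_13 and from -0.089 to 0.068 on scaffold_16. On scaffold_477 it went from -0.12 to 0.043. The median of 41 summed reads is 21 in either library alone. For the other changes the cause was not tested. No paired analysis was possible because neither condition had replicate libraries. Depth limits single peaks, with 41 reads in the median member.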
